A study of Mus musculus with 28 samples.

Results

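Primordial germ cells (PGC) of the fetal ovary at E13.5 were compared with PGC of both sexes at E10.5, before the gonads show a sex. PGC are the embryonic cells from which eggs and sperm descend. The comparison used 6 of the 28 arrays of the series, chosen by the stage and sex in the labels: 2 of E13.5 female PGC, 2 of E10.5 female PGC and 2 of E10.5 male PGC. All 6 came from mouse embryos of the strain BDF1 x TgN(deGFP)18Imeg, so both stages carried the same transgene, and no other treatment is named. The number of embryos per array and the way the cells were isolated are not given in the sources used here. The spread between arrays may therefore be technical. The p-values measure the spread between arrays of the same group, pooled over all 28 arrays of the series, not the 6 alone. The main fit treats arrays as independent, although E10.5 female and male arrays of the same replicate number shared deviations (correlation 0.80). Total RNA was labelled with Cy3 and hybridised to 1-colour Agilent arrays, on which each probe gives 1 brightness. Levels are log2 brightness relative to a 75th percentile on the array, so that a level of 0 is the brightness of a well expressed probe. That percentile was taken over the 7227 probes well above background on all 28 arrays, not over all probes. A probe counted as measured on an array where the scanner software called it well above background.

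Between these stages mouse PGC finish their migration, settle in the genital ridges and lose DNA methylation across the genome. In the ovary, retinoic acid and BMP signals then start meiosis: the gatekeeper Stra8 and the meiotic cohesin Rec8 are switched on, the chromosomes build axes and a synaptonemal complex, and Spo11 cuts the DNA that Dmc1 helps to repair by recombination. Germ cells of the testis do not enter meiosis at this age and take a male route marked by Nodal signalling, the Lefty genes and Nanos2. Entry into meiosis in the ovary also ends the expression of the pluripotency network that PGC share with embryonic stem cells.

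Promoters of genes picked by hand are shown first, without those of Rec8, Smc1b, Stag3, Spo11 and Dmc1. They are therefore no fair sample of the meiotic lists, whose motif shares are given below. Each is the 250 bases before the gene's start in RefSeq (GRCm38.p6), 5′ to 3′ on the gene's strand. Capitals mark 3 of the motifs searched on both strands: the E-box CACGTG, the E2F-type site GGCGGGAA and AGGTCA, none overlapping another in these windows. AGGTCA is a single arm of the paired elements that retinoic acid receptors bind, and 1 arm alone is not such an element. Nanog, which fell, is given for contrast.
Stra8 (chr6:34920698-34920947, plus strand): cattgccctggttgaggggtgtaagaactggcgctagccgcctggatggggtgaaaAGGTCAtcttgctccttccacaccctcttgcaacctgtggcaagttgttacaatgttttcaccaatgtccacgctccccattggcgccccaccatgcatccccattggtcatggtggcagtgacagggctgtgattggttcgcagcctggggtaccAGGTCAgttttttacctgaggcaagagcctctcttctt
Sycp1 (chr3:102936101-102936350, minus strand): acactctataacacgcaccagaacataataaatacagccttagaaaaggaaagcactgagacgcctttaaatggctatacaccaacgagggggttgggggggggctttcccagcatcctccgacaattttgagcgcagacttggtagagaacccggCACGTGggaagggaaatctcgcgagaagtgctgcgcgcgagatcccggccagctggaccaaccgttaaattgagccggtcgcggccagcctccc
Sycp3 (chr10:88459337-88459586, plus strand): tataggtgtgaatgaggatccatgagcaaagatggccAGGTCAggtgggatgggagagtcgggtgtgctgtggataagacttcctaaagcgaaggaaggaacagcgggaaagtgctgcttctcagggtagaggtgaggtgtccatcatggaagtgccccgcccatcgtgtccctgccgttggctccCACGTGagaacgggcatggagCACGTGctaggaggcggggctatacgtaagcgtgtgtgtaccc
Hormad1 (chr3:95559427-95559676, plus strand): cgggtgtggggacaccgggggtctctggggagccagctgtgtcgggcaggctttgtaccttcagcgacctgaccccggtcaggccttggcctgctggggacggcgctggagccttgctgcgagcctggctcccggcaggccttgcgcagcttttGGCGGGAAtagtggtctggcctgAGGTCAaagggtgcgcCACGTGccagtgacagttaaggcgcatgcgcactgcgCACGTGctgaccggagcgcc
Mael (chr1:166238745-166238994, minus strand): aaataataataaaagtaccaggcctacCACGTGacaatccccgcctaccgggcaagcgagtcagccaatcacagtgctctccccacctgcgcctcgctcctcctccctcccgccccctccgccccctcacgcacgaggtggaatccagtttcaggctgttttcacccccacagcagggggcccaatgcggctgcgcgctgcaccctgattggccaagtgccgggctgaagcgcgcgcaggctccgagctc
Ddx4 (chr13:112652311-112652560, minus strand): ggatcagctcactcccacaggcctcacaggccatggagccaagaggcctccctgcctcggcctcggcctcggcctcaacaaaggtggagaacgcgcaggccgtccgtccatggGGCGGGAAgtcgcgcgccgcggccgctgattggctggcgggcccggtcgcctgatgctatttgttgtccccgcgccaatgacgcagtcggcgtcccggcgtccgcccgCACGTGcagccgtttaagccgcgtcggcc
Nanog (chr6:122707239-122707488, plus strand): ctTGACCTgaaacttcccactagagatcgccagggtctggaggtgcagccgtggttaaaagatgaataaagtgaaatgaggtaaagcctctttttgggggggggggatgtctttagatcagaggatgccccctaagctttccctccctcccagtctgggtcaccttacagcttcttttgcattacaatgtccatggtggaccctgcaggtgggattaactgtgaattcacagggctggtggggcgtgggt

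Single AGGTCA arms stood at 194 to 189 and at 38 to 33 bases before the start of Stra8. In Sycp3 the E-boxes lay at 64 to 59 and 43 to 38 bases before the start, and in Hormad1 at 57 to 52 and 20 to 15. The Hormad1 and Ddx4 promoters each held an E2F-type site as well. Shares were counted over the whole 300-base window, from 250 bases before to 50 after the start. Genes were looked up by their listed symbol, so members of the 3 meiotic lists called higher under a newer symbol were left out. Of the 19 meiotic genes called higher and found in this way, 16 had a promoter in the RefSeq table. An E-box stood in 6 of these 16 (37.5%), in 6 of 10 promoters of germ cell RNA-binding and piRNA genes called higher (60%), in 10.6% of the 6074 promoters of tested genes and in 7.24% of all 27025 promoters. The E2F-type site was in 3 of the 16 (18.8%), against 4.54% of tested genes and 2.24% of all promoters. The single arm AGGTCA was in 4 of the 16 (25%), against 11.4% and 16.0%. CNCCTCAG, a motif known for STRA8, was in 2 of the 16 (12.5%), against 9.30% and 7.97%. Among the 8 matched promoters of pluripotency or early PGC genes called lower, none held an E-box. The median number of CpG was 20.5 in the 16 meiotic promoters, 21.0 in tested genes and 7.0 in all promoters. These shares describe letters in a window and were not tested.

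The arrays differed in how many probes they measured. On the E13.5 ovarian arrays 37.5% and 46.7% of probes were well above background, on E10.5 arrays of replicate 2 40.7% (female) and 40.3% (male), and on E10.5 arrays of replicate 1 only 24.5% and 17.8%. Replicate 1 and replicate 2 of all PGC groups were scanned on different days. The 11 germ cell markers on the array were all measured on both ovarian arrays, 11 on each E10.5 array of replicate 2 and 10 on each of replicate 1.

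Across the genome, 13605 genes and unnamed probes were bright enough to test, and 5517 of them (40.6%) differed between E13.5 ovarian PGC and E10.5 PGC at an adjusted p under 0.05 (limma, Benjamini-Hochberg). At E13.5, 3810 (28%) were called higher and 1707 (12.5%) lower, with a median difference of 0.33 log2 units over all tested. The excess of higher calls changed with the filter and the scaling. Among the 6465 measured on all 6 arrays, 1527 were called higher and 1499 lower. With the percentile taken over all probes the calls were 2235 higher and 2550 lower, with normexp background correction 841 and 2319, and with the deposited normalized values 2909 and 112. The median over all tested genes moved with them, to 0.02, -0.47 and 1.11. Single genes are therefore reported beside this background, and the gene lists by counts and medians. From replicate 2 alone, without the dimmest arrays, 4038 were called (2875 higher, 1163 lower).

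**Figure D1:**
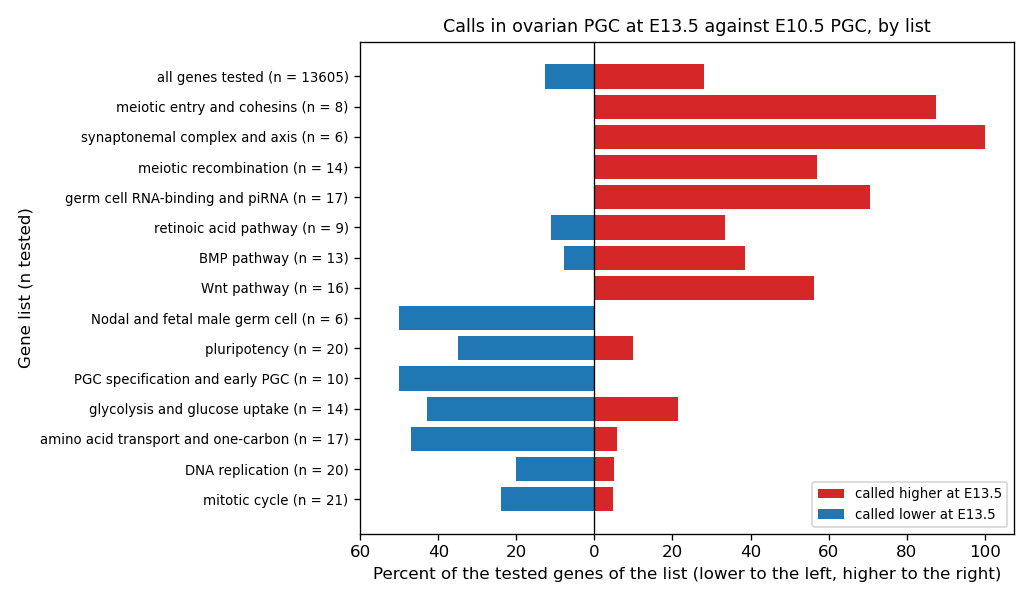
Percent of the tested genes in each list that were called higher (right, red) or lower (left, blue) in E13.5 ovarian PGC than in E10.5 PGC, with the number tested beside each name. Among all genes 28% were higher and 12.5% lower, against 7 of 8 meiotic entry genes and 6 of 6 synaptonemal complex genes higher, and 3 of 6 genes of the Nodal and fetal male list lower.

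Genes of meiotic entry rose, led by Stra8. Stra8, the retinoic acid target required for meiotic entry, read 3.34 and 2.87 in the ovary, and -6.88 and -9.50 in females and -5.78 and -9.34 in males at E10.5, where no array measured it. The ovarian arrays stood far above every E10.5 array, which puts Stra8 at least 484-fold higher at E13.5 (adjusted p = 2.6e-07). Rec8, the meiotic cohesin, read 0.25 and -0.38 against -6.83 and -5.61 in females and -5.82 and -5.79 in males, a rise of 5.94 ± 0.37 log2 units (adjusted p = 7.6e-09; ± gives the standard error, with 2 arrays against 4). Its lowest ovarian value lay above the highest E10.5 value. Rec8 was measured on 2 of the 4 E10.5 arrays, so the size of its rise rests in part on dim values. Over the alternative filters, scalings and array sets the rise went from 3.34 to 7.33.

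Other parts of the meiotic cohesin ring rose as well. Smc1b was already measured on all 4 E10.5 arrays, at -1.80 to -1.48, and reached 2.27 and 2.11 in the ovary, a rise of 3.78 ± 0.50 (adjusted p = 1.9e-05). Stag3 lay at -1.75 to -1.0 at E10.5 and read 0.79 and 0.48 in the ovary, a rise of 2.08 ± 0.35 (adjusted p = 1.6e-04). These 2 cohesin genes were thus present at the earlier stage and increased, whereas Stra8 was not measured there. Msx1, a homeobox factor downstream of BMP known to promote Stra8, rose by 4.08 ± 0.43 (adjusted p = 1.9e-06) and was measured on 2 of the 4 E10.5 arrays. Gata2, a transcription factor, rose by 3.22 ± 0.48 (adjusted p = 5.5e-05). In all, 7 of the 8 tested genes of meiotic entry and cohesins were higher and none lower, with a median of 3.50. The exception was Msx2, a relative of Msx1 named after its value was seen, with a difference of -0.17 (adjusted p = 0.77). Meiosin, the partner of Stra8, was not matched to a probe by name and is not analysed here.

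**Figure D2:**
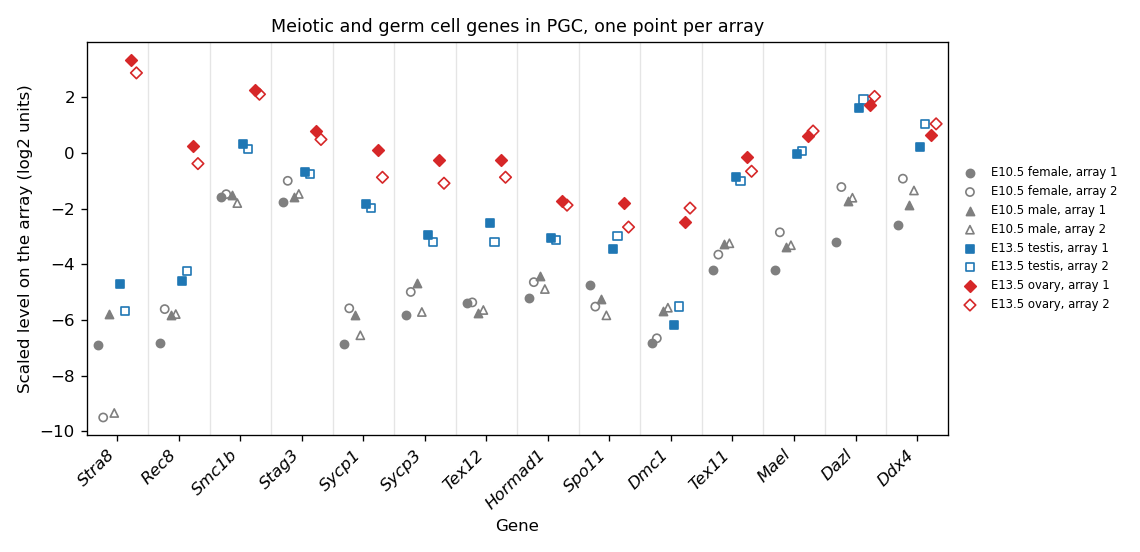
Scaled level (log2 units) of 14 meiotic and germ cell genes on each array: grey circles E10.5 female, grey triangles E10.5 male, blue squares E13.5 testis, red diamonds E13.5 ovary, filled for array 1 and open for array 2. For every gene shown both red points lie above all 4 grey points, and the share of all genes with such separation is not given. For Stra8, Rec8 and Dmc1 the blue points stay well below the red ones, whereas for Dazl and Ddx4 they lie beside them.

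The structural genes of the meiotic chromosome rose together. All 6 tested members of the synaptonemal complex and axis list were called higher, with a median of 4.28, or 3.80 when genes unmeasured at E10.5 are put at their bound. Sycp1, the transverse filament of the complex, read 0.09 and -0.88 in the ovary and -6.85 and -5.58 in females and -5.83 and -6.55 in males at E10.5, a rise of 5.81 ± 0.48 (adjusted p = 1.5e-07). Sycp3, a component of its lateral elements, read -0.26 and -1.09 against -5.82 and -4.99 in females and -4.67 and -5.71 in males, a rise of 4.62 ± 0.36 (adjusted p = 8.2e-08). In both genes the groups were separated by more than 3 log2 units between their nearest arrays. Tex12, of the central element, rose by 4.98 ± 0.35 (adjusted p = 2.8e-08), and Hormad1, which marks unsynapsed axes, by 2.99 ± 0.51 (adjusted p = 2.0e-04). Sycp1, Sycp3, Tex12 and Hormad1 were each measured on 2 of the 4 E10.5 arrays, so the sizes rest in part on dim values. Over the alternatives the rise went down to 3.06 for Sycp1, 2.59 for Sycp3, 2.58 for Tex12 and 1.39 for Hormad1. Sycp2, the partner of Sycp3, was unmeasured at E10.5 and at least 3.82-fold higher in the ovary (adjusted p = 6.7e-04). Its call was lost with normexp, with a common floor for dim values and with the mean of its 5 probes.

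Genes of recombination were higher in 8 of 14 cases and lower in none, with a median of 2.01 (1.03 at bounds). Spo11, which makes the double-strand breaks, read -1.79 and -2.66 against -4.73 and -5.52 in females and -5.26 and -5.83 in males, a rise of 3.11 ± 0.33 (adjusted p = 1.9e-06). Dmc1, the meiotic recombinase, read -2.47 and -1.98 against -6.84 and -6.66 in females and -5.66 and -5.56 in males, a rise of 3.95 ± 0.38 (adjusted p = 7.6e-07). Neither gene overlapped between the stages, although both calls were lost under normexp, as were those of Hormad1 and Brdt. Spo11 and Dmc1 were each measured on 2 of the 4 E10.5 arrays, and over the alternatives their rises went down to 0.87 and 1.14. Tex11, an X-linked crossover gene, rose by 3.18 ± 0.32 (adjusted p = 1.2e-06), and the bromodomain gene Brdt, better known in spermatids, by 2.46 ± 0.41 (adjusted p = 1.7e-04). Terb1 and Msh4, also called higher, were measured on no E10.5 array. Their calls were lost under 14 and 9 of 22 alternatives, the replicate block among them, and their signs turned under normexp. The other 6 tested genes of the list did not pass the test.

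Germ cell RNA-binding and piRNA genes rose in 12 of 17 cases, with a median of 2.44; none was called lower, or 3 with the replicate block. Dazl, the RNA-binding protein that licenses germ cells to differentiate, read 1.73 and 2.03 against -3.19 and -1.23 in females and -1.71 and -1.61 in males, a rise of 3.82 ± 0.60 (adjusted p = 9.5e-05). Ddx4 (mouse vasa homologue) rose by 2.52 ± 0.40 (adjusted p = 9.8e-05) and Mael, of the piRNA machinery, by 4.14 ± 0.39 (adjusted p = 5.4e-07). All 3 were measured on all 4 E10.5 arrays, with the lowest of the E10.5 values of each in females of replicate 1. Rises were also seen for the surface protein Tex101 (5.75 ± 0.30, adjusted p = 2.0e-09), for Tdrd7 of the germ granule (4.66 ± 0.25, adjusted p = 2.0e-09) and for the piRNA helicase Mov10l1 (4.09 ± 0.54, adjusted p = 1.7e-05). Taf7l, an X-linked germ cell transcription factor subunit, was measured on no E10.5 array and was at least 22.5-fold higher in the ovary (adjusted p = 2.6e-05). The integrin Itga6, a germ cell surface marker, rose by 3.30 ± 0.33 (adjusted p = 1.2e-06). Tdrd7, Mov10l1 and Itga6 were each measured on 2 of the 4 E10.5 arrays.

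In the retinoic acid list 3 of 9 genes were higher (33.3%) and 1 lower (11.1%), near the 28% and 12.5% of all genes tested, with a median of 1.07. Crabp2, a retinoic acid carrier, read -1.08 and -1.44 against -2.80 to -1.98, a rise of 1.07 ± 0.27 (adjusted p = 0.0045). Both ovarian values lay above all E10.5 values, and the call was lost under 5 of 23 alternatives, normexp and replicate 1 alone among them.

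In the BMP list 5 of 13 genes were higher (38.5%) and 1 lower (7.69%), against 28% and 12.5% of all genes, with a median of 0.51. Id1, an inhibitor of differentiation induced by BMP, read 0.54 and 0.51 against -1.14 and -1.83 in females and -1.37 and -1.81 in males, a rise of 2.07 ± 0.54 (adjusted p = 0.0054). Id4 rose by 1.88 ± 0.21 (adjusted p = 3.8e-06), Id2 by 1.36 ± 0.40 (adjusted p = 0.012) and the receptor Bmpr1a by 1.47 ± 0.23 (adjusted p = 8.4e-05); under normexp the calls of Id2, Id4 and Bmpr1a were lost. Neither Id1 nor Id2 kept its call within replicate 1 or replicate 2 alone or without replicate 1 of the ovary, though both ovarian values lay above all E10.5 values.

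Wnt pathway genes were higher in 9 of 16 cases and lower in none, with a median of 1.86 (1.62 at bounds). Cited1, a transcriptional coactivator of the Wnt list, read 0.47 and -0.44 in the ovary and was measured on no E10.5 array, so that it was at least 56.7-fold higher (adjusted p = 1.1e-05). Sp5, a direct Wnt target, read -1.60 and -1.52, at least 19.07-fold above E10.5 (adjusted p = 5.7e-05). Nkd1, a Wnt target and feedback inhibitor, read -1.78 and -1.86 against -4.64 to -4.15, a rise of 2.59 ± 0.23 (adjusted p = 3.0e-07). None of the 9 was measured on all 6 arrays, so the E10.5 side of each rests in part on dim values.

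Nodal targets were among the losses. Lefty1, a Nodal antagonist that Nodal itself induces, read -5.43 and -4.76 in the ovary and -1.71 and -0.90 in females and -0.90 and -0.60 in males at E10.5, a change of -4.07 ± 0.47 (adjusted p = 4.9e-06). Lefty2, its neighbour in function, was measured on all 4 E10.5 arrays, at -3.29 to -1.58, and on neither ovarian array, which makes it at least 34.9-fold lower at E13.5 (adjusted p = 3.0e-07). Morc1, a germ cell chromatin protein of transposon silencing, changed by -3.46 ± 0.42 (adjusted p = 8.4e-06). These were the 3 genes called lower among 6 tested in the Nodal and fetal male list. Nodal itself was too dim to enter the test: it read -8.02 and -6.69 in the ovary and -5.86 and -3.72 in females and -5.83 and -3.24 in males at E10.5.

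Pluripotency genes were lower in 7 of 20 cases and higher in 2, with a median of -1.14. Nanog read -2.62 and -1.91 in the ovary and 0.48 and 0.44 in females and 0.55 and 0.49 in males at E10.5, where the 4 arrays were nearly equal, a change of -2.76 ± 0.40 (adjusted p = 4.7e-05). Klf2 changed by -2.41 ± 0.37 (adjusted p = 8.1e-05) and Esrrb by -2.26 ± 0.24 (adjusted p = 1.9e-06), both transcription factors of the naive stem cell state. Tdh, the threonine dehydrogenase of stem cells, changed by -1.80 ± 0.22 (adjusted p = 8.7e-06), and Zfp42, also known as Rex1, by -1.75 ± 0.36 (adjusted p = 9.2e-04). Each of these 5 was lower on both ovarian arrays than on any E10.5 array. The share of all genes tested with such separation is not given, so here and elsewhere it only describes the gene. With the deposited values, in which all genes shift upward, the calls of Klf2, Esrrb, Tdh and Zfp42 were lost.

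Of the central factors of the network, Pou5f1 and Sox2 did not pass the test, whereas Nanog did. Pou5f1 read 3.06 and 3.04 in the ovary and 4.50 and 4.03 in females and 4.25 and 3.63 in males at E10.5, a difference of -1.05 ± 0.48 that did not pass the test (adjusted p = 0.092). Sox2 read -0.82 and -0.97 against 0.63 and 0.06 in females and 0.70 and 0.02 in males, a difference of -1.24 ± 0.98 (adjusted p = 0.33). For both genes the stages did not overlap. With the replicate number as a block the adjusted p was 0.046 for Pou5f1 and 0.0082 for Sox2, and the number of pluripotency genes called lower rose from 7 to 12. Stat3, the mediator of LIF signalling, rose by 1.38 ± 0.25 (adjusted p = 3.6e-04; lost under normexp and a common floor).

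In the list of PGC specification and early PGC genes 5 of 10 were lower and none higher, with a median of -0.97. Of the specifying factors Tfap2c, Prdm1 and Prdm14, only Tfap2c passed the test. Tfap2c read -0.20 and 0.34 against 2.48 and 1.90 in females and 2.39 and 1.89 in males, a change of -2.10 ± 0.40 (adjusted p = 5.2e-04). Prdm1 differed by -1.01 ± 0.44 (adjusted p = 0.08) and Prdm14 by -0.98 ± 0.46 (adjusted p = 0.096), neither passing the test; with the replicate block the adjusted p for Prdm1 was 0.0080. Ifitm3, an early PGC surface gene, changed by -1.57 ± 0.50 (adjusted p = 0.019), and the receptor Kit by -0.66 ± 0.24 (adjusted p = 0.036). The Tfap2c call was lost within replicate 2 alone and with the deposited values. The Ifitm3 call was lost under 9 of 23 alternatives; the Kit call was lost under 14, the replicate block among them (adjusted p = 0.073), and Kit read higher in the deposited table. Within replicate 2 alone none of the 10 was called lower.

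Of the reproductive homeobox genes on the X chromosome, Rhox6 read 1.94 and 1.64 against 3.74 and 2.87 in females and 3.35 and 2.82 in males, a change of -1.40 ± 0.25 (adjusted p = 3.2e-04). Rhox9 read 3.60 and 3.21 against 4.66 and 4.0 in females and 4.38 and 4.04 in males, a change of -0.86 ± 0.26 (adjusted p = 0.014). Both stayed above a level of 0 on the ovarian arrays, and the Rhox9 call was lost under 11 of 23 alternatives.

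**Figure D3:**
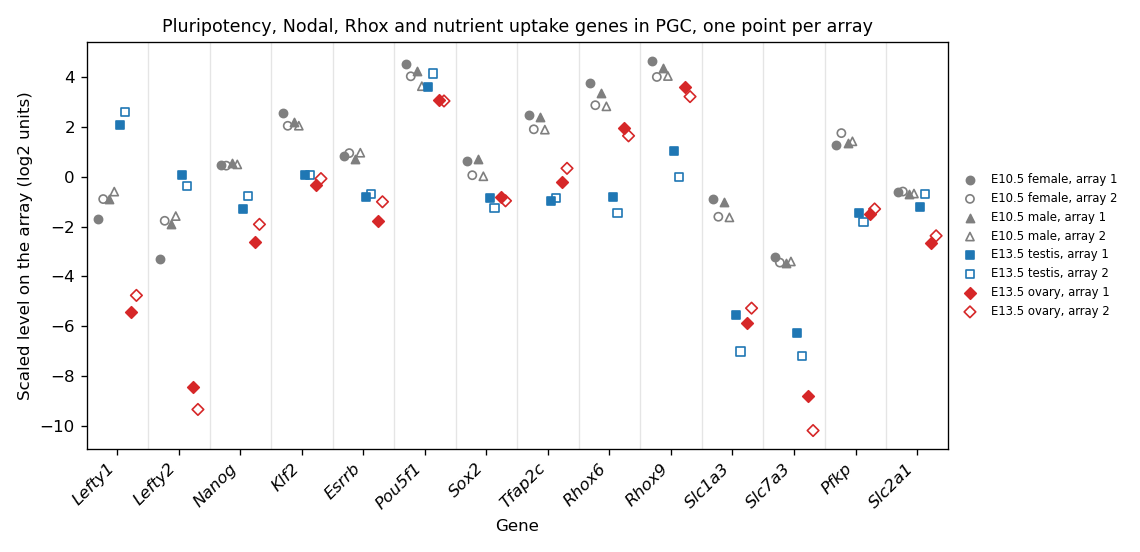
Scaled level (log2 units) of 14 pluripotency, Nodal target, PGC, Rhox and nutrient uptake genes on each array, with symbols as for the meiotic genes (grey E10.5, blue E13.5 testis, red E13.5 ovary). For every gene shown both red points lie below all 4 grey points, and the share of all genes with such separation is not given. Lefty1 and Lefty2 read highest in the testis and lowest in the ovary.

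Genes of DNA methylation moved in both directions, 4 of 15 (26.7%) higher and 3 (20%) lower, with a median of 0.13. With the replicate block 2 were higher. Of all genes tested 28% were higher and 12.5% lower. Uhrf1, which guides maintenance methylation, read -1.88 and -1.70 against -4.15 and -4.05 in females and -4.76 and -3.72 in males, a rise of 2.38 ± 0.32 (adjusted p = 1.8e-05). The maintenance enzyme Dnmt1 read -0.27 and -0.12 against -1.70 and -0.27 in females and -1.93 and -0.15 in males; the 2 lowest values were both from the E10.5 arrays of replicate 1, and the difference of 0.82 ± 0.40 did not pass the test (adjusted p = 0.11). Of the de novo enzymes, Dnmt3b rose by 1.27 ± 0.24 (adjusted p = 4.8e-04; lost under normexp, a common floor and the mean of its 9 probes) and Dnmt3a differed by 0.65 ± 0.29 (adjusted p = 0.09). Apobec2, a deaminase family member once considered for demethylation, read -5.90 and -5.96 in the ovary against -2.59 to -2.25 at E10.5, a change of -3.50 ± 0.21 (adjusted p = 4.4e-09). Gadd45a, a stress gene linked to DNA repair, changed by -1.70 ± 0.45 (adjusted p = 0.0064; lost under 4 of 23 alternatives). In histone methylation 6 of 16 genes were higher and none lower (2 with the replicate block), with a median of 0.35, close to that of all genes. The H3K4 demethylase Kdm5b read -2.35 and -2.07 against -4.80 and -3.24 in females and -5.74 and -3.17 in males, lowest on the E10.5 arrays of replicate 1, a rise of 2.03 ± 0.53 (adjusted p = 0.0058) that was lost under 6 of 22 alternatives, replicate 2 alone among them.

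Mitotic and replication genes were called lower more often than higher, with medians near 0. Of 21 mitotic genes 5 (23.8%) were lower and 1 (4.76%) higher (median -0.11). Of 20 replication genes 4 (20%) were lower and 1 (5%) higher (median -0.08). Among all genes tested 12.5% were lower and 28% higher, with a median of 0.33. Ccnb1, the mitotic cyclin, changed by -1.29 ± 0.28 (adjusted p = 0.0016), the kinases Aurkb by -1.98 ± 0.40 (adjusted p = 9.1e-04) and Aurka by -0.93 ± 0.21 (adjusted p = 0.0022). The replication gene Rrm2, a ribonucleotide reductase subunit, changed by -1.03 ± 0.16 (adjusted p = 8.3e-05). Ccnd1, the G1 cyclin, moved the other way: it read -0.40 and -0.91 against -3.78 and -5.06 in females and -4.47 and -4.33 in males, a rise of 3.76 ± 0.30 (adjusted p = 1.3e-07). Among inhibitors of the cycle 3 of 12 (25%) were higher and 1 (8.33%) lower, near the 28% and 12.5% of all genes tested. Cdkn2d, an INK4 inhibitor, rose by 2.53 ± 0.18 (adjusted p = 3.9e-08), Rb1 by 1.77 ± 0.19 (adjusted p = 1.8e-06), and Trp53 changed by -1.21 ± 0.24 (adjusted p = 6.8e-04).

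Genes of nutrient uptake and sugar metabolism were often lower. Of 17 genes of amino acid transport and one-carbon metabolism 8 were lower and 1 higher, with a median of -0.70. Slc7a3, a transporter of cationic amino acids, read -3.47 to -3.21 at E10.5 and was measured on neither ovarian array, so it was at least 14.7-fold lower (adjusted p = 2.0e-09). Slc1a3, a glutamate transporter, read -5.87 and -5.27 against -0.89 and -1.60 in females and -1.0 and -1.63 in males, a change of -4.29 ± 0.64 (adjusted p = 5.5e-05). Slc1a5, Slc38a2 and Slc7a5, carriers of neutral amino acids, changed by -1.82 ± 0.26, -1.80 ± 0.26 and -1.63 ± 0.23 (adjusted p = 3.9e-05, 5.0e-05 and 3.8e-05), and these 3 calls were lost with the deposited values, as were those of Slc2a1, Hk2 and Pkm.

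Of 14 genes of glycolysis and glucose uptake 6 were lower and 3 higher, with a median of -0.50. Pfkp, the platelet form of phosphofructokinase, read -1.49 and -1.29 against 1.26 and 1.75 in females and 1.35 and 1.42 in males, a change of -2.84 ± 0.24 (adjusted p = 2.4e-07). The glucose transporter Slc2a1 changed by -1.86 ± 0.25 (adjusted p = 2.0e-05), Hk2 (hexokinase) by -1.33 ± 0.19 (adjusted p = 4.5e-05) and Pkm (pyruvate kinase) by -1.02 ± 0.13 (adjusted p = 1.4e-05). Pfkm, the muscle form of phosphofructokinase, went the other way by 0.84 ± 0.25 (adjusted p = 0.012; lost under 9 of 23 alternatives). Pdk3, a kinase that restrains pyruvate entry into mitochondria, rose by 1.92 ± 0.17 (adjusted p = 2.6e-07) without overlap between the stages. Gapdh, often used as a reference, changed by -0.48 ± 0.15 (adjusted p = 0.019); that call was lost under 12 of 23 alternatives, the replicate block among them (adjusted p = 0.059), and turned with the deposited table. Of 8 tested housekeeping genes 1 (12.5%) was higher and 2 (25%) lower, against 28% and 12.5% of all genes tested.

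Genes of the early oocyte were mostly dim. Only 4 of the 21 listed were bright enough to test, and 2 were called higher. Sohlh2, a germ cell helix-loop-helix factor, read -0.56 and -0.30 against -3.53 and -2.64 in females and -3.71 and -2.60 in males, a rise of 2.69 ± 0.64 (adjusted p = 0.0028). Figla, the regulator of egg coat genes, was measured on both ovarian arrays and on no E10.5 array, at least 1.46-fold higher (adjusted p = 0.033), but the call was lost in 14 of 22 alternatives, the replicate block included (adjusted p = 0.16), and the sign turned under normexp. In ovarian PGC at E17.5 Figla read -0.55 and -0.08 and Nobox -0.57 and -1.08. Nobox was measured on neither E13.5 ovarian array.

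Smaller lists held changes in both directions, to be read beside the 28% higher and 12.5% lower of all genes tested. Of 8 migration and adhesion genes 5 were higher and 2 lower, with the adhesion molecule Cdh1 changing by -1.0 ± 0.34 (adjusted p = 0.025; lost under 8 of 23 alternatives, each replicate alone among them). Among imprinted genes, 2 of 4 maternally expressed ones were higher, Cdkn1c by 1.19 ± 0.33 (adjusted p = 0.0078; lost without either ovarian array) and Copg2 by 1.32 ± 0.29 (adjusted p = 0.0016). Of 6 paternally expressed ones 2 were lower, Mest by -1.53 ± 0.31 (adjusted p = 8.5e-04). Cdkn1c encodes an inhibitor of the cell cycle. Of 9 immediate early and stress genes 2 were lower, Ier3 by -1.89 ± 0.26 (adjusted p = 2.5e-05) and Ier2 by -1.66 ± 0.27 (adjusted p = 1.3e-04), and of 3 tested Hox genes 1 was lower.

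Outside the lists, the largest increases were led by Dmrtc2, a germ cell DM-domain gene known from male meiosis, which read -0.07 and -0.70 against -5.97 and -5.55 in females and -5.88 and -5.43 in males, a rise of 5.32 ± 0.41 (adjusted p = 7.3e-08). Ezhip, a germ cell inhibitor of the PRC2 complex, rose by 4.47 ± 0.53 (adjusted p = 5.7e-06), and Larp1b, an RNA-binding protein, by 4.17 ± 0.20 (adjusted p = 1.5e-09). Garnl3 and Tspan33 rose by 4.07 ± 0.23 and 4.23 ± 0.24 (adjusted p = 2.6e-09 and 3.3e-09). The netrin receptor Unc5a was unmeasured at E10.5 and at least 12.9-fold higher (adjusted p = 2.0e-06).

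The largest decreases outside the lists included Hmgn5, an X-linked nucleosome-binding protein, which read -4.45 and -5.25 against -0.27 and -0.75 in females and -0.17 and -0.74 in males, a change of -4.37 ± 0.35 (adjusted p = 1.1e-07). The signalling gene Stat4 and the retinoid-binding gene Rlbp1 were measured on all 4 E10.5 arrays and neither ovarian one, at least 18.97-fold and 14.1-fold lower (adjusted p = 8.4e-06 and 1.8e-08). Rgs16, a regulator of G protein signalling, changed by -4.45 ± 0.45 (adjusted p = 1.1e-06), the taurine transporter Slc6a6 by -3.93 ± 0.57 (adjusted p = 4.7e-05) and the tyrosine kinase Lck by -3.78 ± 0.35 (adjusted p = 4.4e-07).

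Markers of other cells were low on both sides. Summed over the 14 pregranulosa and ovary soma markers on the array, the linear level (1 being the 75th percentile) was 0.203 to 0.209 in the ovary. At E10.5 it was 0.0702 (female) and 0.0811 (male) on the arrays of replicate 2, which measured 4 of the markers each. On those of replicate 1, which measured 0 of them, it was 0.179 and 0.281, from dim values alone. Of the 4 tested, 3 were called higher. Wnt4, Fst and Irx3 read -4.38 and -4.64, -4.63 and -4.47 and -4.46 and -4.36 on the ovarian arrays and were called higher. Wnt4 rose by 2.09 ± 0.82 and Irx3 by 1.52 ± 0.46 (adjusted p = 0.0498 and 0.015), and Fst, measured on no E10.5 array, was at least 2.32-fold higher (adjusted p = 0.015), while under normexp each read lower at E13.5. Under other alternatives the Wnt4 call was lost in 14 of 22, the Fst call in 7 and the Irx3 call in 10, the replicate block among them for Irx3 (adjusted p = 0.061). Foxl2, which defines pregranulosa cells, was not well above background on any of the 6 arrays. Of 3 tested Sertoli markers 2 were lower. The sums for 8 Sertoli markers were 0.116 to 0.270 in the ovary and 0.201 to 0.333 at E10.5, for 9 blood markers 0.103 to 0.508 and 0.0578 to 0.285, and for 10 endothelial markers 0.117 to 0.174 and 0.281 to 0.389. For 12 mesenchyme markers they were 0.487 to 0.506 and 0.364 to 0.493. Unmeasured markers enter each of these sums at their dim values. Of the tested blood, endothelial and mesenchyme markers none was called (0 of 2, 0 of 3 and 0 of 7), and Sox9, which defines Sertoli cells, was well above background on 1 ovarian array, at -8.35 and -7.83 on the 2. The 11 germ cell markers summed to 20.5 and 22.6 in the ovary and 23.6 to 36.5 at E10.5. In bulk samples such as these, fewer cells of a type and less RNA per cell cannot be told apart.

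In the mesonephros and gut epithelium list the sum was higher in the ovary on both arrays, 0.822 and 0.983 against 0.376 to 0.513, and 3 of 7 tested genes were called higher and 1 lower. Cdx2, a homeobox factor of gut and trophectoderm, read -1.34 and -1.83 against -4.14 and -4.39 in females and -5.32 and -4.61 in males, a rise of 3.03 ± 1.04 (adjusted p = 0.028). Krt18, a keratin, rose by 1.18 ± 0.33 (adjusted p = 0.0096; lost under 7 of 23 alternatives) and Foxa2 by 2.06 ± 0.56 (adjusted p = 0.007; lost under 4 of 22, and lower at E13.5 under normexp). The Cdx2 call was lost in 12 of 22 alternatives, though its ovarian values lay above all E10.5 values. The part of other cell types in the gene lists above was not tested.

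Few genes differed between male and female PGC at E10.5, the side used as baseline. Of 8741 genes tested between the sexes 4 (0.0458%) were called, 2 (0.0229%) higher and 2 (0.0229%) lower in males, and 0 with the replicate block (limma, 254 and 261 at an unadjusted p under 0.05). The Y-linked gene Eif2s3y led them: it was measured on both E10.5 male arrays, at -1.93 and -2.20, and on no female array of either stage, so its call against the ovary comes from the male arrays of the baseline. With E10.5 females alone as the baseline the ovarian change was called for 4762 genes, 3409 higher and 1353 lower. Without male replicate 2 of E10.5, 247 genes were called between the sexes.

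X-linked genes are of interest because female PGC reactivate their silent X chromosome around these stages. Of 244 tested X-linked genes 118 (48.4%) were called higher in the ovary and 25 (10.2%) lower, against 28% and 12.5% of all genes and 16.6% to 32.7% higher on single autosomes, with a median difference of 0.80, against medians of 0.11 to 0.43 on the 19 autosomes. Relative to E10.5 females alone the X-linked median was 0.76. Per array, the 119 X-linked genes measured on all 6 arrays had a median level that, once the median of 3945 autosomal genes was taken off, was 0.15 and 0.32 in the ovary, 0.15 and 0.15 in E10.5 females and 0.20 and -0.10 in E10.5 males. These values overlapped, with a difference of 0.13 between the means of the stages. An exact two-sided permutation of 2 arrays against 4 cannot give a p below 0.13, so these values are a description. Over all 244 tested X-linked genes the groups were separate, at 0.10 and 0.01 in the ovary and -0.43 to -0.21 at E10.5, a difference of 0.40. X-linked and autosomal genes could enter the tested set through the ovarian arrays alone, which measured more probes than replicate 1 of E10.5. Neither this separation nor the count of 118 is therefore free of the filter. With the mean in place of the median, the 119 bright X-linked genes were separate as well, a difference of 0.36, so the result for bright genes depends on which is used. Xist was too dim to test.

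**Figure D4:**
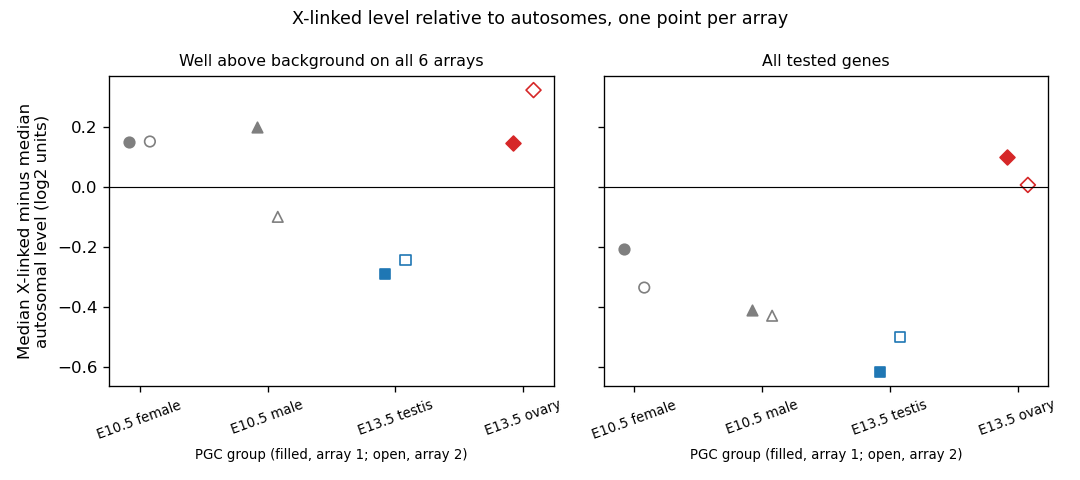
Difference between the median X-linked and the median autosomal level on each array (log2 units), for genes well above background on all 6 arrays (left) and for all tested genes (right); grey E10.5, blue E13.5 testis, red E13.5 ovary. On the left the ovarian points (0.15 and 0.32) overlap with E10.5. On the right, where genes could enter through the ovarian arrays alone, they lie above all E10.5 points.

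The ovarian changes were set against PGC of the testis at the same age, which share the E10.5 arrays, by testing E13.5 ovary minus testis. Of 13783 genes tested 2685 (19.5%) differed, 1681 (12.2%) higher in the ovary and 1004 (7.28%) lower. The total ran from 1061 without ovarian replicate 1 to 4351 without testis replicate 1, where 1873 were higher and 2478 lower, and normexp gave 270 higher and 428 lower. Of the entry genes 7 of 8 were higher in the ovary. Stra8 read -4.72 and -5.69 in the testis, above background on 1 of the 2 arrays by the probe used, and differed by 8.31 ± 1.1 (adjusted p = 7.2e-05); Rec8 read -4.60 and -4.25 and differed by 4.36 ± 0.43 (adjusted p = 4.0e-06). For Dmc1 the difference was 3.62 ± 0.44 (adjusted p = 3.4e-05) and for Msx1 5.03 ± 0.50 (adjusted p = 4.6e-06), each measured on 1 of the 2 testis arrays.

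Other meiotic genes read above their E10.5 values in the testis too. Sycp3 read -2.94 and -3.21 there, between the E10.5 and the ovarian values, and the lines differed by 2.40 ± 0.41 (adjusted p = 6.9e-04). Sycp1 read -1.85 and -1.98, and its difference of 1.52 ± 0.55 did not pass the test (adjusted p = 0.062), nor did those of Spo11 (1.01 ± 0.38, adjusted p = 0.075) and Hormad1 (1.30 ± 0.59, adjusted p = 0.14). Dazl and Ddx4 read 1.62 and 1.92 and 0.20 and 1.02 in the testis, with differences of 0.11 ± 0.69 and 0.22 ± 0.46 (adjusted p = 0.94 and 0.79). In the synaptonemal list 2 of 6 tested genes, and in the recombination list 3 of 14, were called higher in the ovary than in the testis; whether the lists differ in this was not tested.

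Signalling genes also differed. Id1 read -4.11 and -3.94 in the testis, below its E10.5 values, and differed between the lines by 4.55 ± 0.62 (adjusted p = 9.0e-05); Id2 differed by 2.85 ± 0.46 (adjusted p = 3.8e-04). Gata2, Nkd1 and Ccnd1 were higher in the ovary by 5.70 ± 0.55, 2.62 ± 0.26 and 3.50 ± 0.35 (adjusted p = 3.5e-06, 4.8e-06 and 4.7e-06), with Gata2 measured on 1 of the 2 testis arrays. Of 16 Wnt genes 2, and of 13 BMP genes 4, were higher in the ovary than in the testis and none lower, against 12.2% and 7.28% of all genes. Sp5, Cited1 and Id4 rose in the testis too, and their differences of 0.79 ± 1.05, 2.43 ± 1.01 and 0.20 ± 0.25 did not pass the test (adjusted p = 0.66, 0.10 and 0.63). Lefty1 read 2.06 and 2.59 in the testis, above its E10.5 values, and the difference, ovary minus testis, was -7.42 log2 units (adjusted p = 6.4e-07). Lefty2 read 0.07 and -0.38 in the testis and was measured on neither ovarian array (adjusted p = 8.1e-07 for the difference). Rhox6 and Rhox9 read -0.80 and -1.44 and 1.02 and 0.00 in the testis, which left the ovary higher by 2.91 ± 0.29 and 2.90 ± 0.30 (adjusted p = 4.8e-06 and 6.8e-06). For Nanog, Klf2, Esrrb and Tdh the difference between the lines did not pass the test (adjusted p = 0.075, 0.73, 0.13 and 0.65), and neither did it for Pfkp (0.59) and Slc1a3 (0.56). Slc2a1 and Slc38a2 were lower in the ovary than in the testis, with differences of -1.55 and -1.69 (adjusted p = 0.0013 and 9.9e-04).

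Ovarian PGC at E17.5 give the later levels of the same genes. Stra8 read -4.73 and -4.60 and Rec8 -6.47 and -6.99, below their E13.5 values, whereas Sycp1 read 2.29 and 2.57, Sycp3 2.34 and 1.85 and Spo11 0.27 and 0.95, above them. Pou5f1 read -2.05 and -3.00 and Nanog -8.08 and -9.07 at that age. These E17.5 values are given as levels only.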

How the data were processed

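Intensity values (gProcessedSignal, background-subtracted by the scanner software) were deposited for 28 one-colour arrays, 6 used here; Feature Extraction 10.5.1.1 is named in the submitters' processing notes. The deposited log2 table, used as an alternative, matches log2 signal minus each array's median. From the intensities, 1417 control spots and 514 of 43803 probes marked non-uniform were left out, and values were scaled to the 75th percentile over the 7227 probes well above background on all arrays. Of several probes of a gene the brightest was used; 93 of 922 called genes with several probes had one of opposite sign. RefSeq tables named 16760 probes (13143 symbols). limma 3.58.1 in R 4.3.3 fitted 14 group means over 28 arrays (Benjamini-Hochberg, adjusted p under 0.05); a gene was tested where well above background on both arrays of a group compared, and the procedure was tested on simulated data. Bounds ("at least N-fold") set the bright group's mean against the lowest signal well above background per array. The replicate numbers pair the PGC arrays: they mark the scan day, and deviations of same-numbered arrays correlated in all 15 pairs of groups (0.31 to 0.80). Scan day and slide were tried as blocks. Normexp used median spot and background intensities (offset 50). Other alternatives were quantile scaling, filters, baselines and left-out arrays. The members and gene lists were chosen with earlier results of these data known. Genes named are up to 6 called per list and direction with the largest change, the best known members, and, outside the lists, the 15 largest changes each way without overlap; of these 165, those lost under most alternatives are mostly given as counts only. Promoters come from RefSeq (GRCm38.p6); the array's own build was not used.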

Additional observations from a re-analysis of the deposited data

Results flagged for a closer look

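The ovarian and testicular lines differed in their level at E13.5 for 2685 genes and unnamed probes, by the limma test of ovary minus testis. Key genes that passed this test (named in the report or chosen as the best known of their role) are given here with the size of the difference in log2 units; both arrays of each line showed its direction. Higher in the ovary were Stra8 by 8.31, Id1 by 4.55, Rec8 by 4.36, Dmc1 by 3.62, Rhox6 by 2.91, Rhox9 by 2.90 and Sycp3 by 2.40. Lower in the ovary were Nanos2, the male germ cell regulator (-7.15), Sox9, the Sertoli factor (-4.86), Nodal (-4.35) and Dnmt3l, the cofactor of de novo methylation (-3.52). The testis arrays measured 7 and 6 of the 8 Sertoli markers, with summed linear levels of 2.17 and 1.05 against 0.116 and 0.270 in the ovary, and the part of these in the differences was not tested.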

How the results depend on the processing

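The count of 5517 genes called between E13.5 ovarian and E10.5 PGC was 3160 with normexp background correction (841 higher), 3021 with the deposited table (112 lower), 3026 for genes well above background on every array of both sides (1527 higher) and 3528 with the 6 arrays fitted alone (2319 higher). Calls of higher genes were 2235 with the percentile over all probes, 2301 with no filter on dim probes and 2366 with a common floor. The cause was not tested, beyond the fewer genes tested (6465) or arrays fitted. With the replicate block, which uses the pairing of the numbers, 5096 were called, 4644 of them shared with the fit without it; between the sexes at E10.5 the block left 0 calls, 0 higher and 0 lower. Leaving out 1 replicate gave 2988 (without ovarian replicate 1; 3886 without ovarian replicate 2) to 5922 calls, 2019 to 3895 higher and 969 to 2027 lower. Between E13.5 ovary and testis normexp gave 698 (270 higher, 428 lower), the deposited values 1364 (96 lower), no filter 1122 (646 and 476), the filter on every array 1051 higher, and the 12 PGC arrays alone 1300 (814 and 486). Leaving out 1 replicate gave 1061 (without ovarian replicate 1) to 4351 (without testis replicate 1), 624 to 1873 higher and 437 to 2478 lower. Between the sexes at E10.5 it gave 0 to 247, 0 to 90 higher and 0 to 157 lower. Signs turned under normexp for Figla (-0.74), Fst (-0.20), Wnt4 (-0.28), Irx3 (-0.26), Foxa2 (-0.21), Terb1 (-0.47) and Msh4 (-0.53). With the deposited table, whose values all shift upward, they turned for Kit (0.12) and Gapdh (0.31). The share of the STRA8 motif in meiotic promoters was 0 in the 250 bases before the start. The next counts cover only genes named in the report, Terb1 and Msh4 aside. Most genes lost under most alternatives were left out of it, so these counts do not measure how stable all calls are. Of 2299 such values under alternatives 2063 kept their direction and call, 205 lost the call and 23 gained one. Of all 5517 calls, 1445 had the opposite sign under normexp and 452 with the deposited table. Calls of meiotic entry genes ranged from 3 (every array measured) to 7 of 8 higher and of pluripotency genes from 1 (deposited table) to 13 lower. Those of PGC specification and early PGC genes ranged from 0 to 10 lower. With the replicate block 4 immediate early genes were called lower, in place of 2; counts in the oocyte, replication, mitotic, Sertoli, blood and housekeeping lists moved by 1. Besides these and the cases given in the report, the block changed no call of a gene named there. Signal over background limits the dim genes, with 24.5% and 17.8% of probes measured on the E10.5 arrays of replicate 1.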
